A study of Mus musculus with 6 samples.

Results

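The 7 cadherin genes Cdh1, Cdh2, Cdh3, Cdh4, Cdh6, Cdh11 and Cdh13 were followed in mouse embryonic stem (ES) cells, pluripotent cells in culture that stand for the inner cells of the early embryo. Members were all probe sets annotated with 1 of these symbols and no other: 16 of the 45101 probe sets of the array, and 13 of these passed the filter on low values, as did 37950 in the whole series. A probe set is a group of short probes read together as 1 measure of a transcript, and it was tested when its log2 intensity exceeded 4 on at least 2 arrays. Cdh1 had 1 probe set, Cdh2, Cdh3, Cdh6 and Cdh11 had 2 each, Cdh4 had 3 and Cdh13 had 4. The 3 probe sets left untested, 1 of Cdh4 and 2 of Cdh13, lay between 3.19 and 4.24. The study compared 3 genotypes with 2 arrays each, from independent experiments per its design text: the wild type line W4, cells with the allele NcGFP on 1 chromosome (ki/+) and cells with it on both (ki/ki). No treatment separated the groups, and the culture medium held the cytokine LIF, on plates labelled EMFI, read here as embryonic fibroblast feeders. NcGFP is not spelled out in the labels, and is read here, from knowledge of the study, as N-cadherin fused to green fluorescent protein and inserted into the E-cadherin gene Cdh1. How many clones the knock-in arrays came from, and whether these cells derive from W4, is not given in the sources used here.

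Cadherins are calcium-dependent adhesion proteins that reach across the gap between neighbouring cells and bind their like. In classical cadherins the part inside the cell binds beta-catenin, p120-catenin and, through alpha-catenin, the actin cytoskeleton. E-cadherin (Cdh1) holds ES cells and epithelia together, N-cadherin (Cdh2) is typical of mesenchyme, neural tissue and heart, and the change from the former to the latter accompanies epithelial to mesenchymal transition. P-cadherin (Cdh3) and R-cadherin (Cdh4) belong with these to the type I group, while Cdh6 (K-cadherin) and Cdh11 (OB-cadherin, named for osteoblasts and common in fibroblasts) are type II cadherins. Cdh13 (T-cadherin) is held to the membrane by a lipid anchor and lacks the part inside the cell, so it is not classical in the strict sense although it is grouped with them here.

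The arrays held ES cell RNA by their markers: the pluripotency factor genes Pou5f1 and Sox2 had log2 intensities of 12.60 to 13.08 and 11.98 to 12.37. Over the 10 listed pluripotent cell markers, all tested, the median log2 deviation ran from -0.22 in ki/ki replicate 2 to 0.21 in ki/+ replicate 1. Another of the 10, Zfp42, spanned 9.78 to 11.96, so these markers were not uniform over the arrays. Fibroblast marker genes were read as well, at unequal levels, and whether their RNA came from feeder cells was not tested. The median log2 deviation of 24 tested feeder markers, of 25 listed, was -1.40 and -0.53 in ki/+ replicates 1 and 2, 0.01 and 1.64 in ki/ki, and 0.09 and 0.27 in wild type. Their median difference to wild type was 0.63 in ki/ki, with all 24 above 0, and -1.14 in ki/+, with all 24 below. Over all genes 51.6% lay below 0 in ki/ki and 45.9% in ki/+. The markers varied together, so their count is not independent agreement. In the marker median the ki/ki excess rested on replicate 2, as replicate 1 lay below both wild type arrays. The collagen gene Col1a1 had the smallest difference of the 24 in ki/ki (0.01) and the largest in ki/+ (-2.45, limma adjusted p = 0.310). All 24 markers were lowest in ki/+ replicate 1 and highest in ki/ki replicate 2, as were 8.85% of all probe sets, and their summed intensity was 6442 and 12425 in ki/+, 17620 and 56950 in ki/ki, and 19146 and 21870 in wild type. No feeder marker lay below 4.01 on any array. The array's controls for 18S ribosomal RNA had mean log2 intensities of 11.12 to 11.57 on the 4 knock-in arrays and 7.12 to 7.22 on the 2 wild type arrays, so the genotype and whatever made the controls differ cannot be told apart in any comparison with wild type. In such bulk RNA, fewer cells of a type and less RNA per cell cannot be told apart either.

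Cdh1, the gene of E-cadherin and the locus of the knock-in as read here, was in ki/ki the member farthest below wild type. Its probe set, 1448261_at, for a gene of chromosome 8, read 9.77 and 11.09 in ki/ki replicates 1 and 2, 11.66 and 10.62 in ki/+, and 12.17 and 12.13 in wild type. In linear intensity these were 876 and 2185, 3240 and 1570, and 4598 and 4483. The 4 knock-in arrays were all lower than both wild type arrays, whereas the arrays of ki/ki and ki/+ overlapped: ki/ki replicate 2 stood above ki/+ replicate 2. Cdh1 therefore did not sort the knock-in arrays by their labels, so ki/+ and ki/ki are here the genotypes as labelled. Where the probes lie relative to the insertion is not known here. In order of the means, wild type stood at 12.15 ± 0.03 (SD, n = 2), ki/+ at 11.14 ± 0.74 (SD, n = 2) and ki/ki at 10.43 ± 0.93 (SD, n = 2), and the neighbours ki/+ and ki/ki did not differ beyond their spread.

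**Figure D1:**
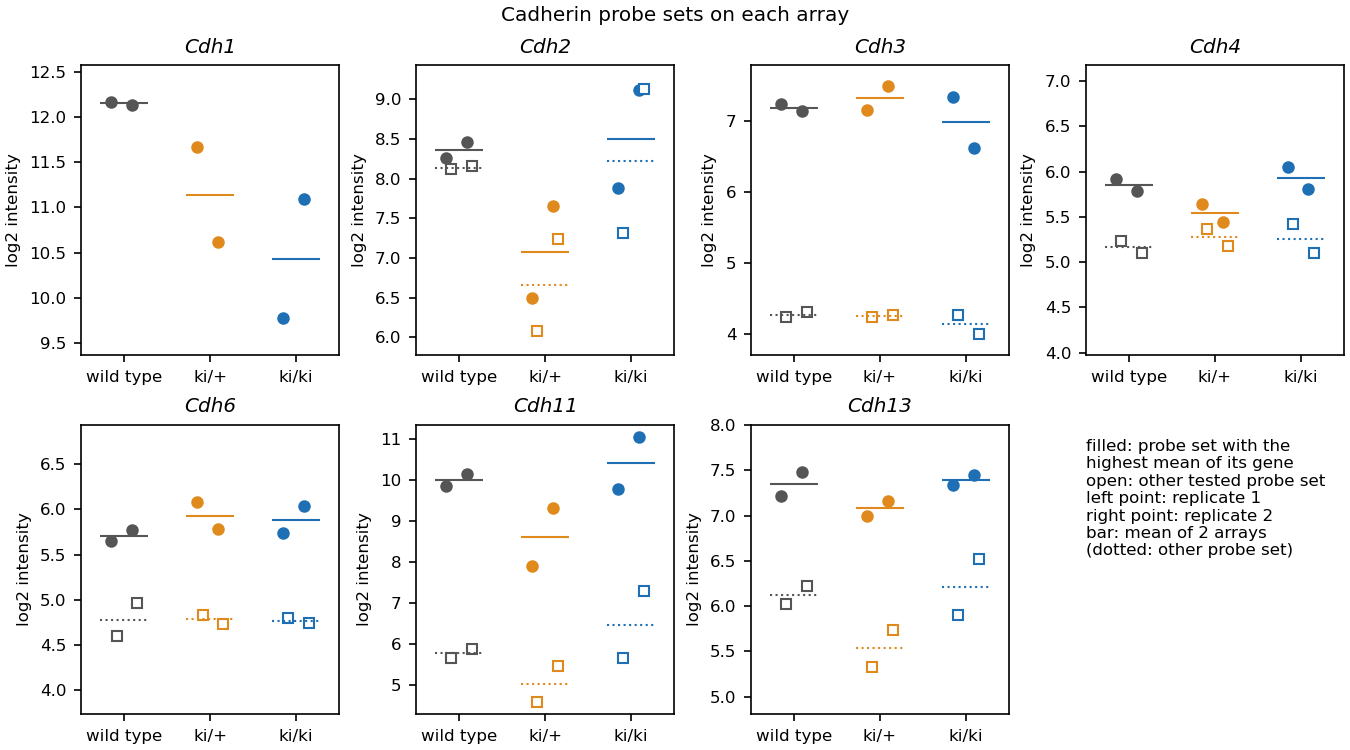
Log2 intensity (vertical axis) of each tested cadherin probe set on every array, by genotype; points are arrays, bars are means of 2 arrays, and filled points mark the brightest probe set of a gene. Cdh1 is lower on all 4 knock-in arrays than in wild type, between 9.77 and 11.66, while Cdh2 and Cdh11 are low in ki/+ and spread widely in ki/ki.

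The 95% confidence interval of the Cdh1 difference from limma, which pools the spread over all probe sets, ran from -2.87 to -0.56 on the log2 scale for ki/ki against wild type, around a 3.28-fold lower level, and from -2.17 to 0.15 for ki/+, around a 2.01-fold lower level. After adjustment over all probe sets neither passed the threshold of 0.05 (limma adjusted p = 0.368 and 0.527). The fit takes 1 spread per probe set for all genotypes. The root mean square SD within a genotype was 0.12 in wild type, 0.23 in ki/+ and 0.39 in ki/ki. Fitted without the ki/ki arrays, the ki/+ difference of Cdh1 was unchanged, with SE 0.32 (limma adjusted p = 0.140). That fit called 3.38% of all probe sets. Taking the 4 knock-in arrays together gave a difference of -1.36 (SE 0.42, limma adjusted p = 0.357), and ki/ki against ki/+ gave -0.71 (SE 0.48, limma adjusted p = 0.654). Cdh1 was the 1 member whose 4 knock-in arrays all lay under the wild type pair, beside 10.2% of all probe sets, and 0 members lay above it on all 4, beside 9.66%. In size, only 19 of 16706 genes (0.114%) lay further below wild type than Cdh1 in ki/ki and 303 (1.81%) in ki/+.

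The 2 arrays of each knock-in genotype disagreed on Cdh1 by more than 1, and the ki/ki difference moved accordingly. Without ki/ki replicate 2 it was -2.37 (limma adjusted p = 0.0432, past the threshold), and without ki/ki replicate 1 it was -1.06 (limma adjusted p = 0.171). The mean of the knock-in genotypes passed as well without ki/ki replicate 2, at -1.69 (limma adjusted p = 0.0373). These fits take the lone ki/ki array to vary like the other genotypes, and in them limma called 2.76% and 5.34% of all probe sets. For ki/ki against ki/+ the value was -0.046 without ki/ki replicate 1 and -1.36 without ki/ki replicate 2, and it passed in neither. The ki/+ difference to wild type was -1.53 without ki/+ replicate 1 and -0.49 without ki/+ replicate 2. When each array's feeder marker median entered the fit as a further term, ki/ki differed by -1.95 (SE 0.50, limma adjusted p = 0.162). For ki/+ that fit gave -0.60 (SE 0.60, limma adjusted p = 0.799).

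**Figure D2:**
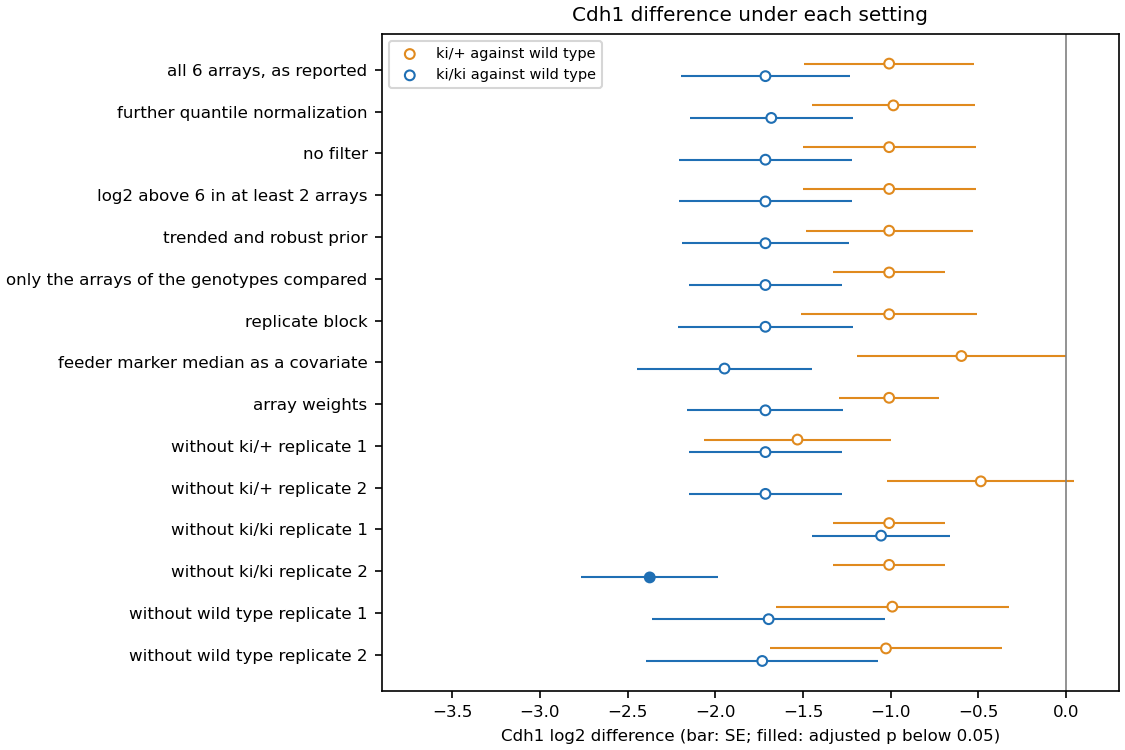
Cdh1 log2 difference to wild type (horizontal axis, bars are SE) for ki/ki and ki/+ under each setting of the analysis; a filled point has an adjusted p below 0.05. All values lie below 0, and the single filled point is ki/ki without its replicate 2, at -2.37.

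In both knock-in pairs the array with the higher Cdh1 level was also the one with high Eif2s3y and Zfp42. The Y-linked translation factor gene Eif2s3y stood at 9.49 in ki/+ replicate 1 and 9.13 in ki/ki replicate 2, where Cdh1 was 11.66 and 11.09. It stood at 4.60 in ki/+ replicate 2 and 5.33 in ki/ki replicate 1, where Cdh1 was 10.62 and 9.77. Zfp42, a marker of undifferentiated ES cells, was 11.96 and 11.80 in the former arrays against 9.78 and 10.08 in the latter. The wild type arrays combined the highest Cdh1 with low Eif2s3y (5.16 and 5.33) and low Zfp42 (9.99 and 9.86). Both genes were picked after their values were seen, and their part in the Cdh1 values was not tested. The 2 arrays of each knock-in label thus differed in both genes, and whether they held the same cells is not given in the sources used here.

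Genes beside Cdh1 on chromosome 8 had smaller differences to wild type, of both signs. Among the 5 nearest tested genes on each side, in the gene order of the RefSeq table of GRCm38.p6, the differences to wild type spanned -0.51 to 0.98 for ki/ki. For ki/+ they spanned -0.44 to 0.82. Cdh3, the P-cadherin gene and itself among these neighbours, was at -0.21 and 0.13, and Tango6, the next tested gene on the other side, at 0.00 and 0.25. Further out, Chtf8 and Utp4 were below wild type on all 4 knock-in arrays, beside 10.2% of all probe sets, with mean differences of -0.47 and -0.32. Sntb2, which encodes a syntrophin of the dystrophin complex, was above wild type on all 4, beside 9.66% of all probe sets. It differed by 0.98 (SE 0.27, limma adjusted p = 0.356) in ki/ki and 0.82 (SE 0.27, limma adjusted p = 0.387) in ki/+. These genes were singled out after their values were seen. The median over 873 tested genes of chromosome 8 was -0.10 in ki/ki and -0.06 in ki/+, against -0.01 and 0.03 over all 16706 genes.

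**Figure D3:**
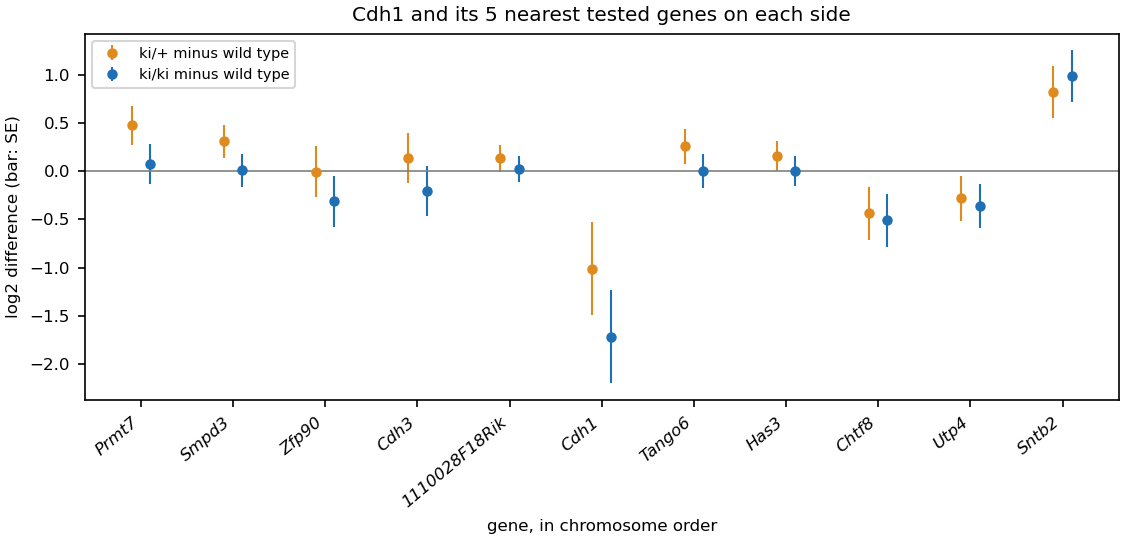
Log2 difference to wild type (vertical axis, bars are SE) of Cdh1 and of the 5 nearest tested genes on each side, in chromosome order without distances. Cdh1 lies lowest, at -1.71 in ki/ki and -1.01 in ki/+, and the other genes lie between -0.51 and 0.98.

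By root mean square distance over the 6 arrays, after centring each gene on its own mean, the genes whose pattern came closest to that of Cdh1 were the kinase gene Mapk4 (0.14), the basement membrane gene Frem2 (0.14) and the Nodal inhibitor gene Lefty1 (0.18). The median distance from Cdh1 over all genes was 0.88. Mapk4 read 4.99 and 6.06 in ki/ki, 6.43 and 5.46 in ki/+ and 7.06 and 7.04 in wild type. Frem2 and Lefty1 had the same low in ki/ki replicate 1, at 4.83 and 9.13, and were highest in wild type, at 6.90 to 6.91 and 11.40 to 11.62. A likeness chosen from 16706 genes over 6 arrays is a description only.

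Cdh2, the N-cadherin gene on chromosome 18, followed another pattern, with its lowest and its highest array both among the knock-in arrays. Its probe set 1418815_at read 6.50 in ki/+ replicate 1, 7.66 in ki/+ replicate 2, 7.88 in ki/ki replicate 1 and 9.11 in ki/ki replicate 2, between which wild type lay at 8.27 and 8.46. The second, 1449244_at, gave 6.08, 7.23, 7.32 and 9.13 in the same order of knock-in arrays and 8.12 and 8.16 in wild type. Both probe sets had the ki/+ arrays below wild type and below ki/ki, while the ki/ki arrays lay on either side of wild type. The range over the arrays was 6.12-fold and 8.27-fold. The 2 probe sets share an accession, and it is not known here whether their probes lie within the inserted N-cadherin sequence and whether they read RNA of the knock-in allele.

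In order of the means, ki/ki stood at 8.50 ± 0.87 (SD, n = 2), wild type at 8.36 ± 0.14 (SD, n = 2) and ki/+ at 7.08 ± 0.82 (SD, n = 2) for the first Cdh2 probe set, and the first 2 of these did not differ beyond their spread. For ki/ki against wild type the interval of its difference was -1.04 to 1.30, which holds differences above 1 in either direction. Against ki/+, ki/ki was higher by 1.42 (SE 0.49, limma adjusted p = 0.442), and by 1.57 (SE 0.61, limma adjusted p = 0.469) with the second probe set. Neither passed, and single arrays moved the first. Without ki/ki replicate 1 it was 2.03 (limma adjusted p = 0.0342), in a fit that called 13.2% of all probe sets, and without ki/ki replicate 2 it was 0.80 (limma adjusted p = 0.494). Without ki/+ replicate 1 it was 0.84 (limma adjusted p = 0.919). For ki/+ against wild type the value was -1.28 (SE 0.49, limma adjusted p = 0.442), and it was -0.70 without ki/+ replicate 1 and -1.87 without ki/+ replicate 2, neither of which passed. With array weights, an option of limma that counts variable arrays less, its limma adjusted p was 0.0469, where 5.72% of all probe sets were called. Both arrays of a genotype got the same weight: 2.688 in wild type, 1.055 in ki/+ and 0.353 in ki/ki. Whole genotypes were thus reweighted, not single arrays.

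Cdh11, the OB-cadherin gene, had the widest range of the members. Probe set 1450757_at read 7.91 and 9.33 in ki/+, 9.78 and 11.05 in ki/ki, and 9.86 and 10.15 in wild type, an 8.81-fold range. The second, 1435120_at, read 4.59 and 5.46 in ki/+, 5.66 and 7.28 in ki/ki, and 5.66 and 5.89 in wild type, a 6.47-fold range. As with Cdh2, both ki/+ arrays were lowest and ki/ki replicate 2 stood above all others. The mean was 10.42 ± 0.90 (SD, n = 2) in ki/ki, 10.01 ± 0.21 (SD, n = 2) in wild type and 8.62 ± 1.00 (SD, n = 2) in ki/+ for the first probe set. The ki/ki arrays exceeded the ki/+ arrays by 1.80 (SE 0.55, limma adjusted p = 0.429). Without ki/ki replicate 1 this was 2.43 (limma adjusted p = 0.0349), again where 13.2% of all probe sets were called. It was 1.17 without ki/ki replicate 2 (limma adjusted p = 0.407) and 1.09 without ki/+ replicate 1 (limma adjusted p = 0.919). Against wild type ki/+ differed by -1.39 (SE 0.55, limma adjusted p = 0.455) and ki/ki by 0.41 (SE 0.55, limma adjusted p = 0.883). The ki/+ value was -0.68 without ki/+ replicate 1 and -2.10 without ki/+ replicate 2, and neither passed.

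Cdh13, the T-cadherin gene, showed the same order in weaker form in the dimmer of its tested probe sets. That probe set, 1423551_at, read 5.33 and 5.74 in ki/+, 5.90 and 6.53 in ki/ki, and 6.02 and 6.22 in wild type, a 2.29-fold range. The brighter, 1434115_at, read 6.998 and 7.16, 7.34 and 7.45, and 7.22 and 7.48 in the same groups, a 1.40-fold range. Both had the ki/+ arrays lowest. The differences of ki/+ to wild type were -0.59 (SE 0.25, limma adjusted p = 0.487) and -0.27 (SE 0.16, limma adjusted p = 0.614), and those of ki/ki were 0.09 and 0.04.

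Cdh2, Cdh11 and the dimmer of the tested Cdh13 probe sets ranked the arrays as the feeder marker median did, as did 15 of the 24 markers themselves. The brighter Cdh13 probe set did not. Both Cdh2 probe sets, both Cdh11 probe sets and the dimmer Cdh13 probe set, 5 of the 13 tested, had the rank order of the feeder marker median over all 6 arrays, an order found in 2.13% of all probe sets. That Cdh2 does so was known when the markers were listed, and the probe sets of 1 gene are not independent of each other. By root mean square distance Cdh11 lay 0.22 and Cdh2 0.26 from the centred marker median, and 0.18 from each other, whereas Cdh1 lay 1.28 from it. The genes most like Cdh2 were Parva (0.07), an actin-linked integrin partner, the metalloproteinase inhibitor gene Timp2 (0.10) and the matrix proteoglycan gene Bgn (0.12), itself 1 of the feeder markers. Those most like Cdh11 were the hyaluronan receptor gene Cd44 (0.09), the growth factor gene Ereg (0.10) and again Bgn (0.12). Bgn read 10.20 and 11.38 in ki/+, 11.74 and 13.06 in ki/ki, and 11.93 and 12.07 in wild type.

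**Figure D4:**
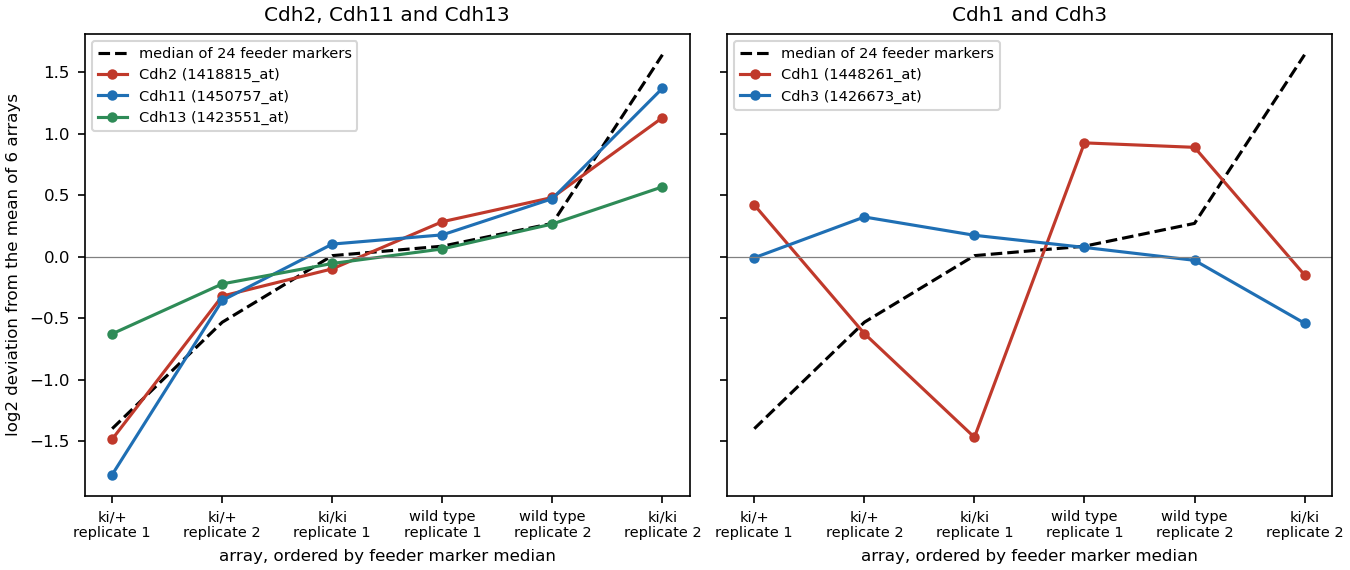
Deviation of each gene from its own mean over 6 arrays (log2, vertical axis), with the arrays ordered by the median of 24 feeder fibroblast markers (dashed). Cdh2, Cdh11 and the dimmer Cdh13 probe set increase at each step in the order of the markers, from ki/+ replicate 1 to ki/ki replicate 2, and Cdh1 and Cdh3 do not.

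Within genotypes, in a limma fit with genotype and the marker median as terms, Cdh2 rose by 0.88 (SE 0.14, limma adjusted p = 0.0363) and 1.15 (SE 0.11, limma adjusted p = 0.0167) per log2 unit of the median. Cdh11 rose by 0.97 (SE 0.17, limma adjusted p = 0.0470) and 1.00 (SE 0.10, limma adjusted p = 0.0170). A slope of either sign was called for 2.42% of all probe sets, a positive one for 1.93%, and among the 13 members for these 4, all positive. The slope of the dimmer Cdh13 probe set was 0.41 (SE 0.10, limma adjusted p = 0.105). The fit has 2 residual degrees of freedom. It was added after the data were seen, with the order of Cdh2 already known, so its calls describe a pattern already observed. Without either wild type array the slopes of the brighter probe sets were 0.88 for Cdh2 (limma adjusted p = 0.125) and 0.96 for Cdh11 (limma adjusted p = 0.135), below the call. Without an array of ki/+ they were 0.76 and 0.79, where 33.1% of all probe sets were called, and without an array of ki/ki 1.33 and 1.63, where 5.35% were. These fits keep 1 residual degree of freedom, and the slope then rests in effect on the 2 arrays of the remaining knock-in genotype. With the marker median in the fit, the differences between genotypes of the brighter Cdh2 probe set were -0.44 for ki/ki against wild type, -0.27 for ki/+ against wild type and -0.17 for ki/ki against ki/+. Those of the brighter Cdh11 probe set were -0.22, -0.28 and 0.06. In the same order the second Cdh2 probe set gave -0.66, -0.17 and -0.49, and the second Cdh11 probe set gave 0.05, 0.39 and -0.34, with signs opposite to the brighter one. The lowest limma adjusted p among these 12 was 0.152.

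For Cdh1 the slope on the marker median was 0.36 (SE 0.34, limma adjusted p = 0.606), and it had opposite signs in the knock-in genotypes. Leaving out either ki/+ array gave 0.80 and leaving out either ki/ki array gave -1.16. These values rest on the same few arrays as the slopes of Cdh2 and Cdh11 in those fits, and no p is given for them. In ki/ki the array richer in feeder markers had the higher Cdh1 level, and in ki/+ it had the lower.

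The other type I members, Cdh3 and Cdh4, gave no call between genotypes, and their intervals do not show equal expression. Cdh3, the P-cadherin gene of epithelia and placenta, read 7.34 and 6.63 in ki/ki, 7.16 and 7.49 in ki/+, and 7.24 and 7.14 in wild type with 1426673_at. Its lowest array was ki/ki replicate 2, where feeder markers were highest, and the groups overlapped. The interval of the difference to wild type was -0.82 to 0.41 in ki/ki and -0.48 to 0.75 in ki/+. For ki/ki against ki/+ the interval was -0.96 to 0.28. The second Cdh3 probe set stayed between 3.999 and 4.31, close to the filter. Cdh4, known from retina and brain, read 6.05 and 5.81 in ki/ki, 5.64 and 5.44 in ki/+, and 5.92 and 5.79 in wild type with 1456397_at. Both ki/+ arrays were lower than all others there, by -0.31 against wild type (SE 0.17, limma adjusted p = 0.562), but the second tested probe set, between 5.10 and 5.42, gave 0.11.

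Cdh6, the type II cadherin of kidney and neural crest, stayed within a 1.34-fold range. Its brighter probe set 1450288_at read 5.73 and 6.04 in ki/ki, 6.08 and 5.78 in ki/+, and 5.65 and 5.77 in wild type, and the other lay between 4.60 and 4.96. The ki/+ arrays were narrowly above wild type in the first, by 0.22 (SE 0.18, limma adjusted p = 0.721), and not in the second. Over both probe sets and the 3 comparisons of genotypes, the intervals of the Cdh6 differences lay within -0.48 and 0.66. Linear intensities of the tested Cdh4 and Cdh6 probe sets ran from 24.2 to 67.4, where the array medians were 50.0 to 53.3. Such low signal may be bounded by background, so small ranges need not mean equal expression.

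Set side by side, the 13 tested cadherin probe sets gave 0 calls by limma in each of the 3 genotype comparisons and in that of all knock-in arrays with wild type, where the share called over all probe sets was 0% as well. At an unadjusted p below 0.05 there was 1 (Cdh1) for ki/ki against wild type, where all probe sets gave 8.94%, and 3 (both of Cdh2, 1 of Cdh11) for ki/+ against wild type, where they gave 10.5%. There were 5 for ki/ki against ki/+, both of Cdh2 and Cdh11 and 1 of Cdh13, beside 10.3% of all. For all knock-in arrays against wild type there was 1, Cdh1, beside 9.69% of all. Both ki/+ arrays lay below both wild type arrays for 8 of the 13, beside 26.2% of all probe sets: Cdh1, both probe sets of Cdh2, Cdh11 and Cdh13, and 1 of Cdh4. They lay above for 1, of Cdh6, beside 28%. Both ki/ki arrays lay below wild type for 1, Cdh1, beside 21.2%, and above for 0, beside 17.3%. Both lay above both ki/+ arrays for 7, beside 15.7%, and these were both probe sets of Cdh2, Cdh11 and Cdh13 and 1 of Cdh4, while 0 lay below, beside 20.4%. The comparisons share their wild type or ki/+ arrays, so these counts are not independent. The median difference of the 13 was 0.08 in ki/ki and -0.31 in ki/+ against wild type, and -0.01 and 0.02 over all probe sets.

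**Figure D5:**
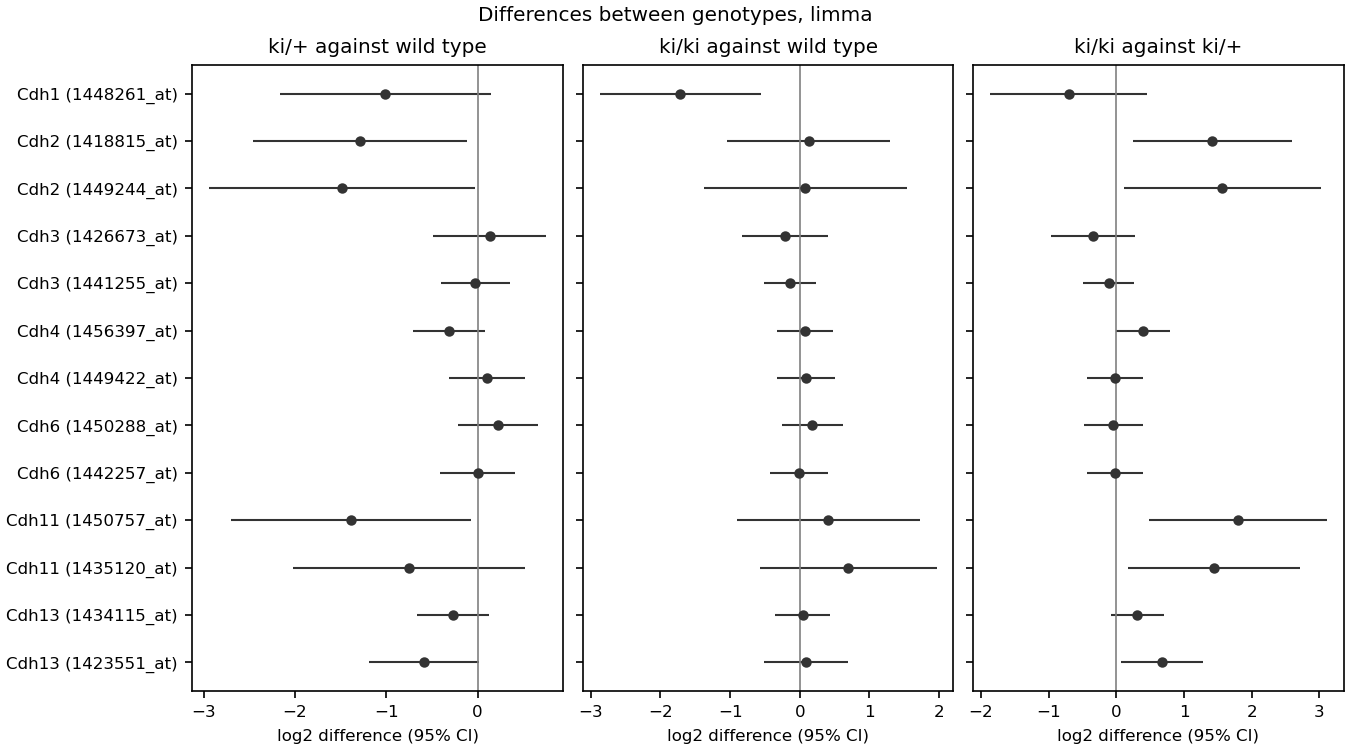
Log2 difference with its 95% confidence interval (horizontal axis) for the 13 tested cadherin probe sets in the 3 comparisons of genotypes. The intervals of Cdh2 and Cdh11 span over 2 log2 units, those of Cdh3, Cdh4 and Cdh6 are narrower and include 0, and the ki/ki interval of Cdh1 lies between -2.87 and -0.56.

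Of the proteins that bind cadherins inside the cell, 17 of 18 listed catenin and junction genes were tested and 0 were called in either direction against wild type, with 2 at an unadjusted p below 0.05 in each of the comparisons of ki/ki and ki/+ (limma), beside 9.19% and 11.1% of all genes. Their median difference was 0.05 in ki/ki and 0.15 in ki/+, beside -0.01 and 0.03 over all genes. Ctnna1, the alpha-catenin gene, differed by 0.53 (SE 0.15, limma adjusted p = 0.374) and 0.30 (SE 0.15, limma adjusted p = 0.547). Both ki/ki and both ki/+ arrays lay above wild type, beside 9.66% of all probe sets. With another Ctnna1 probe set the differences were 0.25 and 0.02, and with the dimmest -0.30 and -0.32. Jup, the gene of plakoglobin, which can take the place of beta-catenin at junctions, differed by -0.55 (SE 0.17, limma adjusted p = 0.421) and -0.73 (SE 0.17, limma adjusted p = 0.282). All 4 knock-in arrays were below wild type for Jup, beside 10.2% of all probe sets. Ajuba, a LIM protein gene of the junction, was at -0.39 and -0.68. The beta-catenin gene Ctnnb1 was at 0.29 and 0.13 with its brightest probe set, but at -0.01 and -0.09 and at -0.13 and -0.48 with its others. The p120-catenin gene Ctnnd1 was at 0.03 and -0.20, but a further Ctnnd1 probe set gave -0.54 and -0.64.

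Repressors of E-cadherin transcription gave no call in any direction. Of 9 listed genes 8 were tested, 0 were called and 0 and 3 had an unadjusted p below 0.05 in ki/ki and ki/+ (limma), beside 9.19% and 11.1% of all genes, of which 0 were called. By their brightest probe sets all 8 lay below wild type in ki/+, with a median of -0.55, beside 45.9% of all genes and a median of 0.03. In ki/ki 5 of 8 did, with a median of -0.24, beside 51.6% and -0.01. Snai1 read 5.36 and 6.28 in ki/ki, 5.05 and 5.20 in ki/+, and 6.06 and 6.54 in wild type. Twist1 differed by -0.29 (SE 0.29, limma adjusted p = 0.828) in ki/ki and -1.39 (SE 0.29, limma adjusted p = 0.262) in ki/+ and had the rank order of the feeder markers. Snai2 read 8.18 and 9.70 in ki/ki, 6.78 and 7.66 in ki/+, and 7.91 and 7.93 in wild type. Both of its ki/ki arrays lay above wild type, beside 17.3% of all probe sets, with ki/ki replicate 2 highest. The second Snai2 probe set gave 0.36 and -0.52. Zeb1 also lay above wild type in both ki/ki arrays, beside the same 17.3%, at 8.50 and 8.43 against 8.02 and 8.09. It differed by 0.41 and -0.21, where its second probe set gave -0.01 and -0.06. Zeb2 differed by -0.19 and -0.25. The means of its 3 other probe sets differed by 0.20 to 0.34 in ki/ki and -0.68 to -0.43 in ki/+. In none of these 3 did both ki/ki arrays lie above both wild type arrays. Tcf4 differed by -0.50 and -0.41, whereas its 5 other probe sets spanned -0.14 to 0.26 in ki/ki and -0.63 to 0.12 in ki/+. Twist2, outside the naming rule but 1 of the 3 with an unadjusted p below 0.05 in ki/+, differed by 0.28 and -1.40. Twist1, Twist2, Snai2 and the 3 other Zeb2 probe sets had their lowest and highest arrays in common with the feeder markers. So did 8.85% of all probe sets, and the part of feeder cells in these values was not tested.

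Among the 3 genes listed as activators of Cdh1, Klf4 was above wild type on all 4 knock-in arrays, beside 9.66% of all probe sets. It differed by 0.63 in ki/ki and 0.66 in ki/+ (SE 0.35, limma adjusted p = 0.667 and 0.567), and by 1.08 and 0.90 with its second probe set. Grhl2 differed by -0.28 and -0.17 and Ovol2 by 0.09 and -0.01. Of the genes that cleave or remove cadherins, 5 of 6 listed were tested and 0 were called by limma, with 1 and 2 at an unadjusted p below 0.05, beside 9.19% and 11.1% of all genes. Adam10, the protease that sheds E-cadherin and N-cadherin, differed by 0.53 and -0.06 with its brightest probe set, and its 3 others spanned -0.20 to 0.32 in ki/ki and -0.45 to 0.36 in ki/+. Furin, which matures cadherin precursors, differed by 0.49 and -0.30 and Ncstn, a subunit of gamma-secretase, by -0.44 and -0.94, in ki/ki and ki/+, with -0.09 and 0.03 in a dimmer Ncstn probe set. Of the other members of the cadherin family 12 of 16 listed were tested, 0 were called by limma and 1 (Cdh7) and 0 had an unadjusted p below 0.05, beside the same shares of all genes. Cdh7, Cdh9 and Cdh22 had the smallest p in ki/ki, at -0.37, -0.36 and -0.34 against wild type (limma adjusted p = 0.542, 0.564 and 0.677).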

How the data were processed

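RNA of 6 ES cell samples was extracted with Trizol and RNeasy columns and read on Affymetrix arrays, per the labels' protocols. The authors deposited each probe set's intensity, not log transformed. Per the design text, the authors normalized by quantiles within GCRMA, checked quality with simpleaffy and analysed with limma, with tool versions not given in the sources used here. Every deposited intensity was converted to log2 for testing. The other table of the series repeats these values (largest difference 0) beside 6 columns of another series, which were not used. Of 45101 probe sets, 64 controls were left out, and 37950 passed the filter. Symbols came from the supplied probe table, updated through RefSeq gene IDs. Of 34958 probe sets with a single symbol 34754 matched, while 932 had several symbols and 9211 had none listed. A gene is represented by its brightest tested probe set, which gave 16706 genes.

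Genotypes were compared with limma 3.58.1 in R 4.3.3, in 1 fit to all 6 arrays with genotype as the only term, and Benjamini-Hochberg adjustment over all 37950 probe sets at 0.05. The fit had 3 residual degrees of freedom and a prior of 3.57. Its estimates of known changes were checked on simulated data. These had 1 spread per probe set for all genotypes, unlike the unequal spreads here. With 2 arrays on each side, the smallest two-sided p of an exact permutation test is 0.333, and the number of arrays limits precision. All members were named, and of each list of related genes the 3 with the smallest p in ki/ki plus a fixed set of regulators and catenins; 3 genes of closest pattern were named for members with a range above 1. Alternatives were a further quantile normalization, other filters on low values, a trended and robust prior, fits to the compared arrays alone, the replicate number as a block, the feeder marker median as a further term, array weights and leaving out each array. The members and lists were chosen with earlier results of these data known. The slopes on the feeder marker median, and the genes beside Cdh1, were added after seeing the data.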

Additional observations from a re-analysis of the deposited data

Results flagged for a closer look

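The control probe sets for 18S ribosomal RNA, which stand outside the tested genes, were higher by a mean of 4.23 on the log2 scale on the 4 knock-in arrays than on the 2 wild type arrays. The control samples of the study are thus set apart by a measure that is not a gene of interest, and every cadherin difference to wild type carries this alongside it.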

How the results depend on the processing

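Over 28 gene and comparison results and 8 settings besides leaving out an array, 355 of 381 values kept their direction and their side of the threshold, 21 changed direction and 5 passed the threshold. None of these 28 was called as reported, so none could lose a call. The slopes of Cdh2 and Cdh11, which were called, lost their calls without either wild type array (limma adjusted p = 0.125 and 0.135). With the marker median of feeders in the fit the sign changed for ki/ki against wild type in Cdh2 (-0.44), Cdh11 (-0.22) and Cdh13 (-0.030), for ki/ki against ki/+ in Cdh2 (-0.17) and Cdh3 (0.13), and for ki/+ against wild type in Cdh3 (-0.16). A further quantile normalization put Cdh3 in the mean of the knock-in genotypes at 0.024. With array weights limma called 2 member probe sets for ki/+ against wild type, both of Cdh2, where 5.72% of all were called. Leaving out each array in turn, ki/ki against wild type ran from -2.37 to -1.06 in Cdh1, -0.48 to 0.75 in Cdh2, -0.22 to 1.04 in Cdh11, -0.091 to 0.17 in Cdh13, -0.56 to 0.15 in Cdh3 and -0.044 to 0.20 in Cdh4. The mean of the knock-in genotypes ran from -1.69 to -1.03 in Cdh1, -0.25 to 0.017 in Cdh13 and -0.21 to 0.14 in Cdh3. For ki/+ against wild type Cdh3 ran from -0.031 to 0.30, and for ki/ki against ki/+ Cdh3 ran from -0.70 to 0.017 and Cdh6 from -0.20 to 0.11. The slopes on the marker median ran from -1.16 to 0.80 in Cdh1, -0.44 to 0.34 in Cdh3 and -0.30 to 0.19 in Cdh6. Calls among the members ran from 0 to 1 for ki/ki against wild type and for the mean of the knock-in genotypes (Cdh1, without ki/ki replicate 2), and from 0 to 5 for ki/ki against ki/+ (Cdh2, Cdh11 and 1 probe set of Cdh13, without ki/ki replicate 1, where 13.2% of all probe sets were called). The causes were not tested. Same-numbered arrays deviated from their group means with correlations across probe sets of 0.14, 0.06 and -0.04. These do not settle whether single members share a replicate effect. In each genotype replicate 2 had the higher feeder marker median. With the replicate block Cdh1 was -1.71 for ki/ki against wild type (limma adjusted p = 0.407) and 0 members were called. For ki/ki against ki/+ the block lowered the SE from 0.49 to 0.28 in Cdh2 (limma adjusted p = 0.197). In Cdh11 it fell from 0.55 to 0.29 (limma adjusted p = 0.185). The fit to only the arrays compared could not be run for the mean of the knock-in genotypes, which uses all of them. With 2 arrays a genotype, a difference smaller than the distance from its estimate to an interval end cannot pass even before adjustment. With all 6 arrays larger ones, such as that of Cdh1 in ki/ki, did not pass after adjustment. Probe sets near the filter may be bounded by background.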
